A study of Mus musculus with 11 samples.

Results

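Lumbar spinal cord of mice that carried both the mutant mitofusin MFN2-R94Q and MFN1 was compared with that of nontransgenic mice, gene by gene. Genes were taken from the deposited expression table where at least 3 of its 11 libraries reached 0.5 RPKM, a read count scaled to gene length and library size. That rule kept 14347 of the 20888 gene symbols in the table. The groups compared were 5 libraries labelled MFN2-R94Q:MFN1 and 3 labelled nTg, and 3 libraries labelled MFN2-R94Q are given beside them. All mice were C57BL/6, the cords were collected at 10 months, and poly(A) RNA was sequenced from stranded TruSeq libraries. By its title the study models CMT2A, a hereditary neuropathy of peripheral axons, in mice, and the comparison shows what differed from control cord when MFN1 was present on the mutant background. No group with MFN1 alone was analysed here, so the parts of the 2 transgenes cannot be told apart. The promoters and the species of the transgenes, the sex of the mice and whether nTg mice were littermates were not stated in the labels.

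Mitofusin 1 and mitofusin 2 are large GTPases of the mitochondrial outer membrane that tether and fuse mitochondria, and mutations of mitofusin 2 cause a neuropathy of the longest motor and sensory axons. The cells that respond to degenerating axons in the spinal cord are mainly microglia and astrocytes. Microglia are resident macrophages that read lipids and debris through TREM2 and its signalling adaptor TYROBP, take them up and break them down in lysosomes. Astrocytes respond to injury by raising the intermediate filaments GFAP and vimentin. Bulk tissue RNA mixes all of these cells, so more cells of a type and more RNA per cell cannot be told apart in what follows.

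The tissue carried the markers of its label. Hoxc10, a lumbar patterning gene, was between 29.4 and 32.9 RPKM in the 8 libraries compared, and Chat, the acetylcholine-synthesizing enzyme of motor neurons, was between 10.4 and 11.9 RPKM. Estimated depth was 34.5 to 53.8 M reads in nTg and 36.3 to 71.8 M reads in MFN2-R94Q:MFN1. Among the 8 libraries, the leading principal component held 35.4% of the variance and separated the groups, with nTg between -10.8 and -7.80 and MFN2-R94Q:MFN1 between 3.44 and 9.22. MFN2-R94Q replicate 2 stood apart from all others in the analysis of the 11 libraries (27.0 on a component with 39.6% of the variance, where the rest lay between -8.23 and 8.05). It is not in the comparison but enters the shared estimate of the spread, so counts are also given for the 8 libraries fitted alone.

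The mouse mitofusin genes themselves were level between the groups. Mfn1 (chromosome 3, 32529443 to 32579225 on GRCm38.p6) was at 24.98, 24.2 and 25.5 RPKM in nTg and at 25.2, 25.1, 24.6, 24.2 and 25.6 RPKM in MFN2-R94Q:MFN1. The groups overlapped, and the log2 fold change was 0.00 (95% interval -0.06 to 0.07). Mfn2 (chromosome 4, 147873586 to 147904909) was at 45.9 ± 1.24 RPKM in nTg (SD, n = 3) and at 45.2 ± 1.56 in MFN2-R94Q:MFN1 (n = 5), with a log2 fold change of -0.02 (interval -0.10 to 0.06). A transgene of another species, or one without the mouse gene's own ends, need not be counted under these symbols, so they do not check the labels.

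Against nTg, 300 genes were higher and 32 were lower in MFN2-R94Q:MFN1 cord. The higher genes were led by microglial, complement and astrocyte genes, and most changes were small. With limma on log2(RPKM + 0.5) and an adjusted p under 0.05, those counts were 2.09% and 0.223% of the 14347 genes tested. The median log2 fold change over all tested genes was 0.01, over the higher genes 0.40 and over the lower genes -0.22. Of the higher genes 52 were at least 1.5-fold and 15 at least 2-fold, whereas 1 lower gene, Vps35, reached 1.5-fold and none reached 2-fold. The filter could be passed through the transgenic libraries alone, as by Sprr1a, Cst7, Wisp2, Itgax and Ccl5, under 0.5 RPKM in every nTg library. A gene low in both transgenic groups needed all 3 nTg libraries to pass. The part of this in the counts was not tested. In all 332 called genes the 5 and 3 libraries did not overlap. That was so for 14.1% of all tested genes, 9.03% higher and 5.05% lower. Among calls 90.4% were higher, and 79.1% after scaling each library to the same median (231 higher, 61 lower). The 2 groups fitted alone gave 459 higher (3.2%) and 106 lower (0.739%) genes, which included all 332. Without 1 library the counts ranged from 180 higher and 9 lower (without nTg replicate 1) to 478 higher and 111 lower (without MFN2-R94Q replicate 2). For scale, MFN2-R94Q against the same nTg libraries gave 1076 higher genes (7.5%) and 1485 lower (10.4%), and MFN2-R94Q:MFN1 against MFN2-R94Q gave 1370 higher (9.55%) and 478 lower (3.33%). These comparisons share libraries with the one described.

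Leading the rises was Lgals3, which encodes galectin-3, a sugar-binding protein of activated microglia and macrophages (chromosome 14, 47373860 to 47386167). It was at 1.58, 1.58 and 1.74 RPKM in nTg and at 7.22, 8.29, 7.08, 8.66 and 8.48 RPKM in MFN2-R94Q:MFN1. The lowest library of the second group was thus more than 4 RPKM above the highest of the first, and no library of MFN2-R94Q (4.27, 5.60 and 5.15 RPKM) reached it. The fitted rise was 3.95-fold (log2 1.98, SE 0.084, adjusted p = 7.6e-08). The direct test between the transgenic groups gave a log2 difference of 0.62 (adjusted p = 0.0013). Of the 5 tested genes on each side of Lgals3, among them Mapk1ip1l and Fbxo34, none was called, with log2 fold changes between -0.07 and 0.19.

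**Figure D1:**
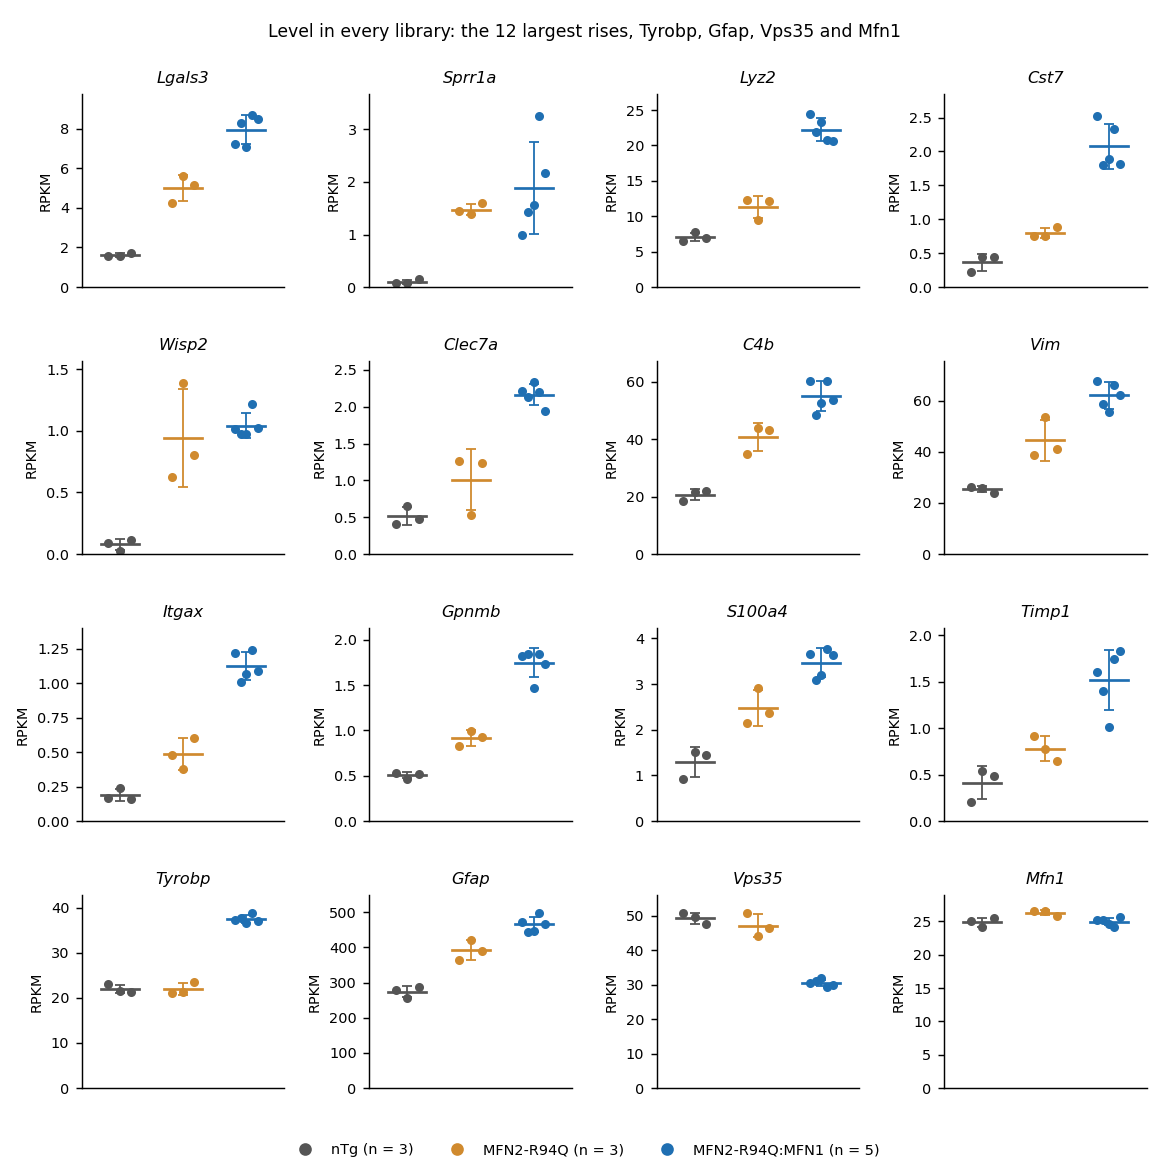
RPKM of 16 genes in every library of nTg (grey, 3), MFN2-R94Q (orange, 3) and MFN2-R94Q:MFN1 (blue, 5), with the mean (line) and SD. All axes start at 0. In the 12 leading rises every MFN2-R94Q:MFN1 library lies above every nTg library, Vps35 lies below (29.5 to 31.8 against 47.6 to 50.7 RPKM) and Mfn1 overlaps.

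Sprr1a, a small proline-rich protein gene induced in injured neurons, was at 0.07, 0.09 and 0.15 RPKM in nTg and between 0.99 and 3.25 in MFN2-R94Q:MFN1. Its fitted rise was 3.77-fold (adjusted p = 2.5e-04), on a scale that understates the change of genes so low in controls. Lyz2, the lysozyme of macrophages and microglia, rose 3.00-fold from 7.05 ± 0.60 RPKM (SD, n = 3) to 22.2 ± 1.62 (n = 5, adjusted p = 4.8e-07). Its close copy Lyz1 was called as well, from 0.40 to 1.12 RPKM, and how reads were divided between the copies is not given. Cst7, an inhibitor of lysosomal cathepsins, rose 2.96-fold, Clec7a, the receptor dectin-1, rose 2.63-fold, and Itgax, the integrin CD11c, rose 2.35-fold. All 3 were under 0.7 RPKM in each nTg library and above 1 RPKM in each MFN2-R94Q:MFN1 library.

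Wisp2, a secreted matricellular protein gene, rose 2.67-fold, from 0.08 ± 0.05 RPKM (SD, n = 3) to 1.04 ± 0.10 (n = 5), and MFN2-R94Q stood beside it at 0.94 ± 0.40 (n = 3). Gpnmb, a glycoprotein of lipid-laden phagocytes, rose 2.23-fold to 1.75 ± 0.16 RPKM. S100a4, a calcium-binding protein, rose 2.23-fold to 3.47 ± 0.31, and Timp1, an inhibitor of matrix metalloproteinases, 2.22-fold to 1.52 ± 0.33. C4b and Vim belong to the complement and astrocyte groups described further on.

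Of 30 genes that mark microglia, 17 rose and none fell, against 2.09% and 0.223% of all tested genes. The median log2 fold change of the list was 0.44, against 0.01 for all genes tested. Its summed level was 375 to 399.6 RPKM over the nTg libraries, 390.5 to 431 over MFN2-R94Q and 544 to 618 over MFN2-R94Q:MFN1. So the 5 libraries lay above both other groups without overlap, while the median of the list in MFN2-R94Q against nTg was 0.00. The microglial list was chosen as a check on cell type, with earlier results of these data known.

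Adaptors and receptors of the list were among the genes that rose. Tyrobp was at 23.1, 21.5 and 21.4 RPKM in nTg and at 37.3, 37.8, 36.5, 38.8 and 37.0 RPKM in MFN2-R94Q:MFN1. Within each group the libraries lay within about 2.5 RPKM of each other, and the rise was 1.69-fold (log2 0.76, SE 0.041, adjusted p = 6.1e-07). In MFN2-R94Q it was at 21.1, 21.4 and 23.5 RPKM, as in nTg, and the direct test between the transgenic groups gave a log2 difference of 0.76 (adjusted p = 1.8e-06). Trem2, the lipid receptor that signals through Tyrobp, rose 1.69-fold from 9.22 ± 0.37 RPKM (SD, n = 3) to 15.9 ± 0.82 (n = 5, adjusted p = 2.1e-05). Fcer1g, the adaptor of Fc receptors, rose from 9.10 to 13.8 RPKM, and, outside the list, Itgb2, the beta chain shared by CD11b and CD11c, from 2.31 to 4.11 RPKM. Csf1r, the receptor on which microglia depend for survival, rose less, 1.29-fold from 22.2 to 28.8 RPKM. Cx3cr1, the fractalkine receptor, rose 1.33-fold from 10.3 to 13.8 RPKM.

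Genes held to be most restricted to resting microglia had small fold changes that did not pass. P2ry12, the purinergic receptor of surveying microglia, was at 9.76 ± 1.05 RPKM in nTg and 10.8 ± 0.27 in MFN2-R94Q:MFN1 (log2 0.14, 95% interval -0.04 to 0.32, adjusted p = 0.45). Tmem119 was at 8.29 and 8.95 RPKM (log2 0.10, interval -0.03 to 0.24) and the transcription factor Sall1 at 9.66 and 10.4 (log2 0.10, interval -0.10 to 0.30). Selplg and Siglech were not called, at log2 fold changes of 0.10 and 0.20. The upper ends of the intervals of P2ry12, Tmem119, Sall1 and Selplg lie below the fold change of Tyrobp. All 30 members had a fold change above 0, the smallest 0.06 for Mertk. Spi1, which encodes the transcription factor PU.1 of the macrophage lineage, was at 1.71 and 2.23 RPKM (log2 0.31, adjusted p = 0.062) and did not pass.

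**Figure D2:**
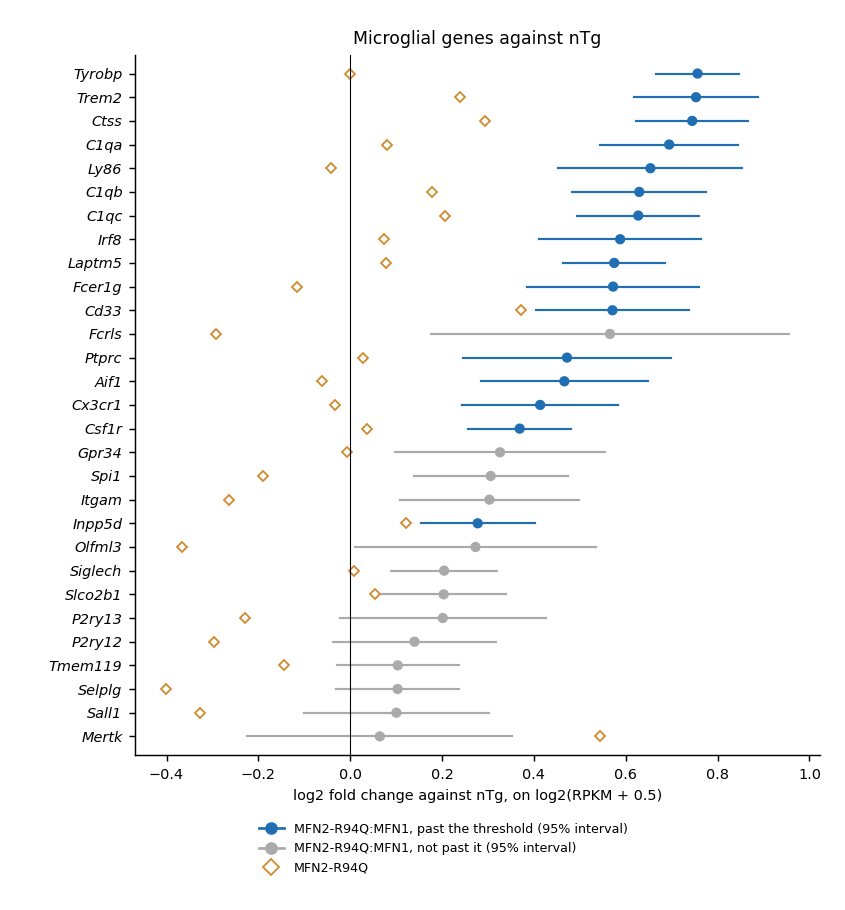
Log2 fold change against nTg on log2(RPKM + 0.5) for 29 of the 30 microglial genes, in MFN2-R94Q:MFN1 (circles with 95% intervals, blue where the adjusted p is under 0.05) and in MFN2-R94Q (open diamonds). Tyrobp, Trem2, Ctss, Ly86 and the complement C1q chains lead at 0.63 to 0.76, and P2ry12, Tmem119, Selplg, Sall1 and Mertk lie between 0.06 and 0.14.

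The start sites of 4 of these genes are shown because PU.1 is the factor most closely tied to microglial genes and its letters can be looked for there. The windows run from 220 bases before to 20 bases after the start in RefSeq on GRCm38.p6, 5′ to 3′ on the gene's strand. Capitals mark the letters GAGGAAGT, a strong PU.1 site, read here on the opposite strand as ACTTCCTC. These letters contain GGAA, the core shared by the whole ETS family of factors.
Ctss, chr3:95526566-95526805, + strand: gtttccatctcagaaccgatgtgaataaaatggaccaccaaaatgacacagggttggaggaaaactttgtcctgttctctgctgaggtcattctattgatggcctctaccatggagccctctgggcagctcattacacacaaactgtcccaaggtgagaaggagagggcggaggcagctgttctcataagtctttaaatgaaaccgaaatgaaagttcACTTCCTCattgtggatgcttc
C1qc, chr4:136892895-136893134, - strand: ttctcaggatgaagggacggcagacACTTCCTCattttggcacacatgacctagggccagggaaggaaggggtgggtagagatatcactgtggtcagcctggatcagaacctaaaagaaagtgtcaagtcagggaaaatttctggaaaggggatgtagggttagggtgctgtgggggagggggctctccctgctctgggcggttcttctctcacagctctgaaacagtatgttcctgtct
Trem2, chr17:48346181-48346420, + strand: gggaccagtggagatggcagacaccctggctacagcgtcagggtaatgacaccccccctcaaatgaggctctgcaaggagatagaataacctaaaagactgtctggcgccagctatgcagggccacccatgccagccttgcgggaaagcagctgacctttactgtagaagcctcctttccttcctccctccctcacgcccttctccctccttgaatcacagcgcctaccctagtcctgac
Lgals3, chr14:47373640-47373879, + strand: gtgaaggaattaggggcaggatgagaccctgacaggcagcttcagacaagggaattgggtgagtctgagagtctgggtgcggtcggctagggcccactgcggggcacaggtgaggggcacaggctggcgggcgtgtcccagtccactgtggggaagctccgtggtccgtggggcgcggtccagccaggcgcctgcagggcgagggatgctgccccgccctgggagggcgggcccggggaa
Relative to the start, the letters begin at position -2 in Ctss and at -195 in C1qc, and the windows of Trem2 and Lgals3 do not hold them. Counted from 250 bases before to 50 after the start on both strands, 25 of the 225 higher genes with a RefSeq promoter held them (11.1%), against 3.32% of 11283 tested genes and 3.69% of all 27025 promoters. Of the 21 lower genes with a promoter none did. In the microglial list 4 of 22 promoters held them (18.2%), and in a list of disease-associated microglial genes 1 of 29 (3.45%) and none of the 22 whose genes rose. A match is a description of the sequence and not a bound site.

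Ctss encodes cathepsin S, a protease of microglial lysosomes. It was at 53.6, 57.0 and 59.1 RPKM in nTg and at 99.4, 92.5, 96.3, 103 and 85.3 RPKM in MFN2-R94Q:MFN1. The lowest of the 5 stood more than 25 RPKM above the highest of the 3, and MFN2-R94Q lay between at 65.6 to 73.4 RPKM. The rise was 1.68-fold (log2 0.74, SE 0.057, adjusted p = 8.1e-06).

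The disease-associated list holds genes that microglia raise around degenerating tissue, Tyrobp and Trem2 of the list above among them. Of 35 tested members 27 rose and none fell, with a median log2 fold change of 0.48. The list was drawn up from the microglial state described in neurodegeneration models, with earlier results of these data known. Beside Lgals3, Lyz2, Cst7, Clec7a, Itgax and Gpnmb, it holds the phagosome protein gene Cd68, which rose 1.89-fold from 4.60 ± 0.35 RPKM (SD, n = 3) to 9.13 ± 0.68 (n = 5). Lpl, the lipoprotein lipase, rose 1.86-fold from 1.23 to 2.69 RPKM, and the tetraspanin genes Cd9 and Cd63 rose 1.48-fold and 1.30-fold. Cd52, a surface glycoprotein, rose 2.10-fold from 3.43 to 7.79 RPKM and was at 3.53 RPKM in MFN2-R94Q. Axl, a receptor for dying cells, rose 1.19-fold from 13.6 to 16.3 RPKM. Members that did not pass included the abundant genes Spp1 (73.6 and 79.4 RPKM, log2 0.11) and Fabp5 (127 and 132 RPKM, log2 0.06). Vegfa had the lowest fold change, at -0.15. The list score, an average over members of the log2 difference from nTg, was -0.01 to 0.01 over nTg, 0.14 to 0.24 over MFN2-R94Q and 0.57 to 0.67 over MFN2-R94Q:MFN1.

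Lilrb4a, an inhibitory receptor of myeloid cells outside these lists, was among the 10 smallest p-values. It rose from 0.23 ± 0.05 RPKM (SD, n = 3) to 0.92 ± 0.05 (n = 5), or 1.95-fold (adjusted p = 4.4e-06).

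Lysosomal genes rose in part. Of 48 members 15 rose and none fell, and the median log2 fold change of the list was 0.08. Beside Cd68 and Ctss, Laptm5, a lysosomal membrane protein gene, rose 1.49-fold from 13.3 to 20.1 RPKM. Among other proteases Ctsh rose 1.39-fold from 5.85 to 8.32 RPKM, Ctsz from 24.4 to 34.2, and the abundant Ctsd from 215 ± 3.65 RPKM (SD, n = 3) to 270.2 ± 4.87 (n = 5), or 1.25-fold. Grn, progranulin, rose 1.28-fold from 18.2 to 23.5 RPKM. Members that did not pass included the proton pump subunit Atp6v1a and the membrane genes Lamp1 and Npc1: Atp6v1a was at 116 and 117 RPKM, Lamp1 at 232 and 241, and Npc1, the cholesterol exporter, at 29.5 and 30.2.

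In the complement list, 11 of 20 genes rose and none fell, with a median log2 fold change of 0.33. The 3 chains of C1q, the recognition molecule of the classical pathway, rose by similar amounts: C1qa 1.62-fold from 34.2 to 55.8 RPKM, C1qb 1.55-fold from 34.0 to 53.0, and C1qc 1.54-fold from 35.4 to 55.0. In each of them replicate 4 of MFN2-R94Q:MFN1 was the highest of the 5. C4b, the next component in the cascade, was at 18.5, 21.4 and 22.1 RPKM in nTg and at 60.2, 48.3, 52.7, 60.03 and 53.5 RPKM in MFN2-R94Q:MFN1. All 5 were more than 2-fold above each control, and the rise was 2.62-fold (log2 1.39, SE 0.088, adjusted p = 2.2e-06). C4b has a close copy in the genome, so reads may be divided between them.

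C3, the central component, rose 2.02-fold from 10.9 ± 1.19 RPKM (SD, n = 3) to 22.6 ± 3.46 (n = 5), and its receptor gene C3ar1 from 0.58 to 1.002 RPKM. Regulators rose less: Clu, clusterin, 1.203-fold from 326 to 392 RPKM, and Serping1, the C1 inhibitor, 1.46-fold. The call of Serping1 was lost in 4 of the 11 runs without 1 library. Cd55 and Cd59a, which protect the body's own cells, were not called, at log2 fold changes of -0.14 and -0.08. Cfp, properdin, had the lowest value of the list, -0.25.

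Of 23 tested antigen presentation genes 9 rose and none fell. They were class I chains, Psmb8 and Psme1 of the peptide supply, and Nlrc5, a regulator of class I transcription, whereas Tap1, Tap2, Tapbp, Psmb9 and Psme2 were not called. B2m, the light chain of class I, was at 89.5, 90.9 and 97.4 RPKM in nTg and at 135, 137, 137, 143 and 114 RPKM in MFN2-R94Q:MFN1. Replicate 5 was the lowest of the 5 but above all controls, and the rise was 1.43-fold (adjusted p = 0.0021). The class I heavy chain H2-K1 rose 1.43-fold from 22.3 to 32.0 RPKM and the immunoproteasome subunit Psmb8 1.39-fold from 3.31 to 4.80 RPKM. Class I genes are close copies of each other, which makes their single values uncertain. The count of 9 fell to between 3 and 5 without nTg replicate 1 or 2, or MFN2-R94Q:MFN1 replicate 1, 2 or 3.

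The class II genes Cd74 and H2-Aa had larger fold changes than B2m and H2-K1 but uneven values, and the difference between the classes was not tested. Cd74, the invariant chain, was at 1.70, 1.91 and 2.36 RPKM in nTg and at 4.84, 2.87, 2.597, 11.6 and 3.64 RPKM in MFN2-R94Q:MFN1. The groups did not overlap, as in 9.03% of all tested genes in this direction. Replicate 4 stood far above the others, and the log2 fold change of 0.98 did not pass (SE 0.33, adjusted p = 0.17). H2-Aa, a class II chain, was at 1.02 to 1.079 RPKM in nTg and 1.30 to 5.14 in MFN2-R94Q:MFN1 with replicate 4 highest (adjusted p = 0.22). Mrc1, a marker of border macrophages, was also highest in replicate 4, at 0.24 RPKM against 0.095 to 0.17 in the other 7 libraries compared. Cd163 and Lyve1, further markers of such cells, were not. In replicate 4 Cd163 was at 0.21 RPKM, the lowest of the 5 MFN2-R94Q:MFN1 libraries. Lyve1 was at 0.07 RPKM there, within their range of 0.05 to 0.08 and below the nTg range of 0.09 to 0.10. The part of such cells in the class II values was not tested.

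Interferon response genes lay a little above control. Of 36 tested genes 7 rose and none fell, and 35 of 36 had a fold change above 0, with a median of 0.24. Irf8, a transcription factor that microglia use as well, rose 1.503-fold from 1.19 to 2.05 RPKM. Ifitm3, a membrane protein that blocks viral entry, was at 14.8, 15.9 and 15.5 RPKM in nTg and at 19.2, 22.4, 19.8, 20.1 and 20.4 RPKM in MFN2-R94Q:MFN1, and rose 1.31-fold (adjusted p = 0.0015). In MFN2-R94Q it was lower than in either, at 13.4, 11.4 and 12.5 RPKM. Bst2, tetherin, rose 1.42-fold from 3.31 to 4.91 RPKM. Irf7, Isg15 and Rsad2, interferon targets as well, did not pass, at 1.34 and 2.11, 2.04 and 2.49, and 0.61 and 0.53 RPKM. Without nTg replicate 1, 2 or 3 the list's count was 4. The letters GAAANNGAA of the interferon-stimulated response element stood in 17 of 28 promoters of the list (60.7%), against 8.29% of tested genes, and in 5 of the 7 members that rose.

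Among cytokines, chemokines and their receptors, 12 of 31 tested genes rose and none fell, with a median of 0.27. Ccl3 rose 2.10-fold from 0.42 ± 0.09 RPKM (SD, n = 3) to 1.44 ± 0.14 (n = 5), and Ccl4 1.94-fold from 0.30 ± 0.05 to 1.05 ± 0.17. Both are chemokines of activated microglia, and their annotated spans overlap on chromosome 11. Ccl5, which draws in T cells, rose 1.63-fold to 0.75 RPKM, although it was at 0.23 RPKM in MFN2-R94Q and 0.26 in nTg. It passed the filter only through the MFN2-R94Q:MFN1 libraries, where it was high. Receptors that rose included Tnfrsf1a, the main TNF receptor (1.30-fold, from 8.003 to 10.6 RPKM), and Tlr2 (1.31-fold). Cx3cl1, the neuronal ligand of Cx3cr1, was at 69.6 and 63.6 RPKM and did not pass. The count was 7 without nTg replicate 1 and 6 without nTg replicate 3.

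Markers of other immune cells were near the floor. Of 14 border macrophage markers 2 were high enough to be tested, Cd74 and H2-Aa, and Ccr2 was at most 0.07 RPKM in the 8 libraries. Of 20 lymphocyte markers 1 was tested, Ccl5. Cd3e, of T cells, was at most 0.10 RPKM and Ms4a1, of B cells, at most 0.05. The summed level of the lymphocyte markers was 0.73 to 1.02 RPKM in nTg and 1.45 to 1.79 in MFN2-R94Q:MFN1. Ccl5 is part of that sum, with means of 0.26 and 0.75 RPKM. The summed level of the border macrophage markers was 4.22 to 4.69 RPKM in nTg and 5.37 to 18.1 in MFN2-R94Q:MFN1. Their part in the microglial values was not tested.

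**Figure D3:**
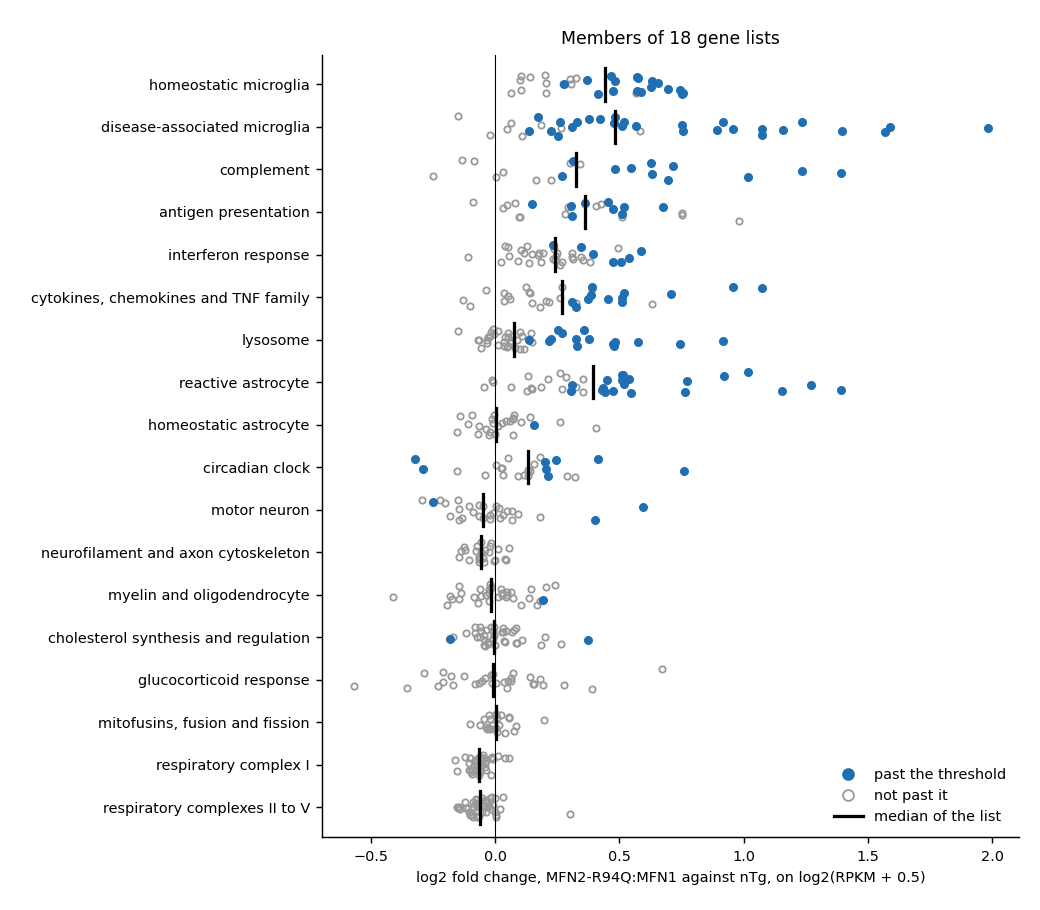
Log2 fold change between MFN2-R94Q:MFN1 and nTg of the tested members of gene lists, 1 point a gene, filled where the adjusted p is under 0.05, with the list median as a black bar. Members of the immune and reactive astrocyte lists that passed lie to the right of 0, with list medians from 0.08 (lysosome) to 0.48 (disease-associated microglia), while myelin, cholesterol and mitochondrial lists have medians between -0.06 and 0.00.

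Astrocytes showed the reactive genes raised and the homeostatic genes near control. Among reactive astrocyte genes 20 of 36 rose and none fell, with a median of 0.39. Gfap, the astrocyte intermediate filament, was at 279, 256 and 287 RPKM in nTg and at 471, 443, 447, 497 and 467 RPKM in MFN2-R94Q:MFN1. The groups were more than 150 RPKM apart, with MFN2-R94Q between them at 364 to 422, and the rise was 1.70-fold (log2 0.76, SE 0.053, adjusted p = 4.4e-06). Vim, vimentin, rose 2.41-fold from 25.4 ± 1.23 RPKM (SD, n = 3) to 62.0 ± 5.17 (n = 5). Serpina3n, a protease inhibitor released by reactive astrocytes, rose 1.71-fold from 29.0 to 50.01 RPKM, and Cd44, a matrix receptor, 1.42-fold from 1.98 to 3.01 RPKM. Lcn2, an acute-phase lipid carrier in reactive glia, was at 1.46 and 1.44 RPKM and did not differ. Several members, among them C3, H2-D1 and Cd14, are also expressed by microglia. The list's count was 13 without nTg replicate 1.

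Of 26 homeostatic astrocyte genes 1 rose (3.85%) and none fell, near the shares of all tested genes (2.09% and 0.223%), with a median of 0.00. It was Mlc1, a membrane protein of perivascular end-feet, at 82.1 ± 0.85 RPKM in nTg and 91.6 ± 2.01 in MFN2-R94Q:MFN1 (1.11-fold, adjusted p = 0.022), and it lost its call in 5 of the 11 runs without 1 library. The glutamate transporter gene Slc1a2 was at 174 and 171 RPKM, glutamine synthetase, Glul, at 567 and 595, and Aldh1l1 at 22.8 and 23.9. Aqp4, the water channel of the end-feet, was higher in every MFN2-R94Q:MFN1 library (88.1 to 99.6 RPKM) than in nTg (74.2 to 83.8) but did not pass (log2 0.26, adjusted p = 0.18). Of all tested genes 9.03% were likewise higher without overlap.

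Neuronal injury genes moved singly. Of 20 axon injury genes 2 rose, Sprr1a and Atf3, and the median was 0.00. Atf3, a transcription factor switched on in axotomized neurons, was at 0.74, 0.55 and 0.80 RPKM in nTg and at 1.30, 1.12, 1.17, 1.42 and 1.45 RPKM in MFN2-R94Q:MFN1, without overlap (1.5-fold, adjusted p = 0.00435). The regeneration genes Gap43 (65.5 and 67.4 RPKM), Jun (13.5 and 12.5) and Gal (6.71 and 7.04) were not called. Nor was Sarm1, the axon degeneration executor, at 5.85 and 5.36 RPKM.

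Of 29 motor neuron genes 2 rose (6.90%) and 1 fell (3.45%), against 2.09% and 0.223% of all tested genes. In the fit of the 8 libraries alone, and without MFN2-R94Q replicate 2, 3 were lower. Mmp9, a protease gene of fast motor neurons, was at 4.49, 4.37 and 4.52 RPKM in nTg and at 3.66, 3.84, 3.64, 3.56 and 3.67 RPKM in MFN2-R94Q:MFN1. It fell to 0.841 of the control level (adjusted p = 0.0056), and stood at 3.72 ± 0.07 RPKM in MFN2-R94Q. Calca, a neuropeptide gene of motor and sensory neurons, rose 1.32-fold from 13.9 to 18.6 RPKM. Uts2, urotensin 2, rose 1.51-fold from 15.1 ± 0.29 RPKM (SD, n = 3) to 23.5 ± 4.61 (n = 5). The call of Uts2 was lost in 5 of the 11 runs without 1 library. The annotated span of Uts2 lies within that of the clock gene Per3, and whether counting used the strand is not given, so its value is uncertain. The cholinergic genes were not called: Chat was at 11.7 and 11.1 RPKM (log2 -0.07), Slc18a3 at 22.98 and 20.7 (log2 -0.15), and Slc5a7 at 16.7 and 17.2. Without nTg replicate 2 neither rise of the list was called. Chodl, of fast motor neurons, was at 15.7 ± 0.18 and 12.7 ± 1.02 RPKM, with groups that did not overlap and an adjusted p of 0.22. Of all tested genes 5.05% were likewise lower without overlap.

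None of 25 neurofilament and axon cytoskeleton genes was called in the fit of 11 libraries, at a median of -0.06 and with 5 of 25 above 0. Of all tested genes 2.31% were called, a share at which such a list would hold few calls or none. In the fit of the 8 libraries alone 4 were lower. Nefh, the heavy neurofilament, was at 251, 269 and 269 RPKM in nTg and at 236, 237, 239.8, 240.0 and 235 RPKM in MFN2-R94Q:MFN1 (log2 -0.14, adjusted p = 0.28). Every library of the latter was below every control, as in 10 of the 25 members and 5.05% of all tested genes.

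Clock genes were called in both directions. Of 24 tested genes 6 rose and 2 fell. Dbp, an output transcription factor of the clock, was at 14.8, 14.9 and 15.9 RPKM in nTg and at 23.6, 26.2, 26.6, 27.7 and 26.6 RPKM in MFN2-R94Q:MFN1 (1.69-fold, adjusted p = 0.0017). Ciart rose 1.33-fold, and the repressors Per3, Nr1d2, Bhlhe40 and Bhlhe41 rose 1.15-fold to 1.19-fold. The activators Arntl (BMAL1) and Npas2 fell, Arntl from 4.75 ± 0.46 to 3.78 ± 0.15 RPKM and Npas2 from 2.68 ± 0.05 to 2.04 ± 0.03 (SD, n = 3 and 5). Clock, the paralog of Npas2, was at 10.0 and 10.2 RPKM. These genes follow the time of day, and the labels do not state the hour at which each cord was collected, so genotype and hour cannot be told apart. Without nTg replicate 1 or 3 the rises were 3 and the falls 1.

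Among the falls, Vps35 was set apart by size. It encodes the core subunit of retromer, the complex that returns cargo from endosomes, and mutations of it cause a form of Parkinson disease (chromosome 8, 85260385 to 85299517). It was at 50.7, 49.7 and 47.6 RPKM in nTg, at 50.7, 44.0 and 46.6 in MFN2-R94Q, and at 30.6, 31.1, 31.8, 29.5 and 30.02 RPKM in MFN2-R94Q:MFN1. All 5 libraries lay within 2.5 RPKM of each other and more than 12 RPKM below any library of the other groups. The level was 0.624 of nTg (log2 -0.68, SE 0.044, adjusted p = 2.2e-06), and the direct test against MFN2-R94Q gave -0.61 (adjusted p = 2.4e-05). It kept its call in every run without 1 library.

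No other gene of the retromer and endosomal sorting list was called, of 22 tested. Vps26a and Vps29, the partners of Vps35 in the complex, were at 14.1 and 14.7 RPKM and at 51.1 and 51.8 RPKM. Around Vps35, 9 of the 10 nearest tested genes were not called, the adjoining Orc6 and Zfp791 among them, at log2 fold changes of 0.12 and -0.05. Man2b1, a lysosomal mannosidase, rose 1.19-fold from 11.2 to 13.5 RPKM and stood at 13.3 RPKM in MFN2-R94Q. The neighbours of Vps35 were looked at after its value was seen. Whether the insertion site of a transgene lies near it was not tested.

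**Figure D4:**
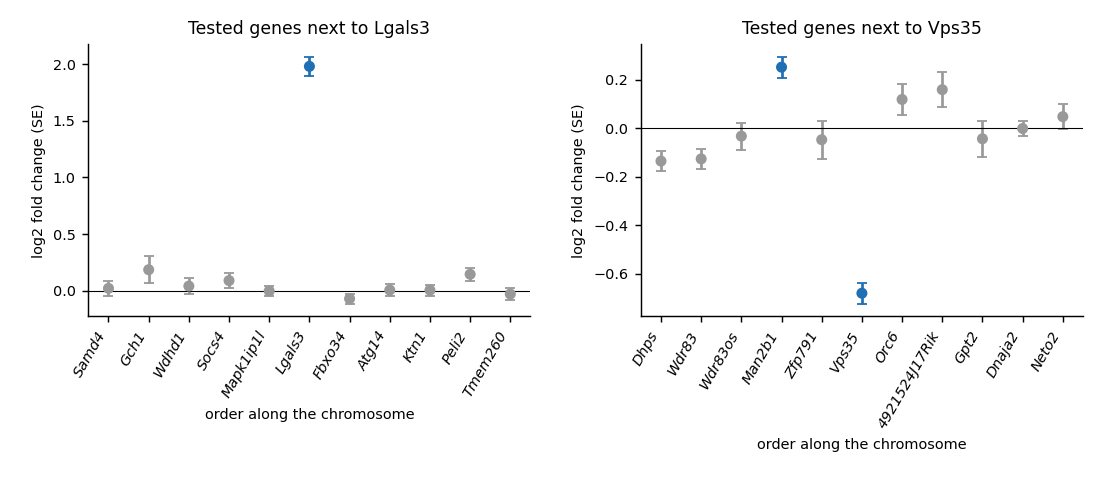
Log2 fold change (with SE) between MFN2-R94Q:MFN1 and nTg of the 5 tested genes on either side of Lgals3 and of Vps35, in chromosome order, coloured where the adjusted p is under 0.05. Lgals3 (1.98) and Vps35 (-0.68) stand apart from their neighbours, and Man2b1 (0.25) is the single neighbour past the threshold.

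The other leading falls were small and less secure. Plac9a, Egr3 and Igfbp2 were at 0.696, 0.699 and 0.713 of the nTg level, and the mean of each was nearer to nTg than that of MFN2-R94Q. The direct limma test between the transgenic groups passed for Plac9a (log2 0.42, adjusted p = 0.024) and Igfbp2 (log2 0.67, adjusted p = 0.0035). For Egr3 it did not pass (log2 0.14, adjusted p = 0.43), and the 2 transgenic groups overlapped. Igfbp2, which binds insulin-like growth factors, was at 13.7 ± 1.11 RPKM in nTg, 5.91 ± 0.9995 in MFN2-R94Q (SD, n = 3 each) and 9.67 ± 1.201 in MFN2-R94Q:MFN1 (n = 5). Creld2, an endoplasmic reticulum stress gene, was at 0.757 and Etv5, a transcription factor, at 0.807 of the nTg level, with Sppl2b, Kcnk12 and Hcn3 at 0.832, 0.824 and 0.840. Leaving out 1 library ended the call of Plac9a in 3 of 11 runs, Sppl2b in 4, Egr3, Igfbp2, Creld2 and Arntl in 6 each, Kcnk12 and Hcn3 in 8 each and Etv5 in 9. Of the 12 leading falls, Vps35, Npas2 and Mmp9 kept their call in all 11.

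Several gene groups stood near the nTg level. Of 35 myelin and oligodendrocyte genes 1 rose (2.86%), Tspan2 (1.14-fold), and none fell, against 2.09% and 0.223% of all tested genes. The median was -0.02, where that of MFN2-R94Q against nTg was -0.38. In the fit of the 8 libraries alone, and without MFN2-R94Q replicate 2, 3 were higher and 1 was lower. Mag, myelin-associated glycoprotein, was at 259.5, 279 and 270.1 RPKM in nTg and at 259, 288, 269, 265 and 279 RPKM in MFN2-R94Q:MFN1, overlapping fully, against 196 to 229 in MFN2-R94Q. Trf, transferrin, was at 543 and 535 RPKM with a mean of 318 in MFN2-R94Q, and Ugt8a, which makes galactosylceramide, at 58.0 and 52.4 with 29.2. The MFN2-R94Q libraries were uneven here, with myelin list scores of -0.24, -0.64 and -0.22, lowest in replicate 2. Of 38 cholesterol genes 1 rose, the efflux transporter Abca1 (1.30-fold), and 1 fell (2.63% each, beside the same shares), at a median of -0.01. Of 11 runs without 1 library, Tspan2 lost its call in 3 and Abca1 in 6.

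No glucocorticoid response gene of 31 was called, against 2.31% of all tested genes. At that share such a list would hold few calls or none. The median was -0.01, where that of MFN2-R94Q was 0.72, and members ranged from -0.57 to 0.67. In the fit of the 8 libraries alone 2 were higher and 2 lower. Cdkn1a was at 10.9 to 12.9 RPKM in nTg and 7.04 to 8.51 in MFN2-R94Q:MFN1, lower without overlap, as were 5.05% of all tested genes. In MFN2-R94Q replicate 2, which enters the shared spread, it was at 91.8 RPKM. Fkbp5, a feedback inhibitor of the glucocorticoid receptor, was at 8.54, 7.41 and 6.92 RPKM in nTg and at 9.22, 7.60, 7.68, 7.35 and 8.14 RPKM in MFN2-R94Q:MFN1, overlapping, whereas MFN2-R94Q was at 10.3, 29.3 and 11.8. The interval of the difference from nTg was wide (log2 0.07, 95% interval -0.45 to 0.59). The metallothionein gene Mt1 was higher in every MFN2-R94Q:MFN1 library (344 to 389 RPKM) than in nTg (293 to 315), as were 9.03% of all tested genes. It did not pass (log2 0.27, adjusted p = 0.43).

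No gene was called in 6 mitochondrial lists, against 2.31% of all tested genes, a share at which lists of these sizes would hold few calls or none. None passed of 22 fusion and fission, 27 mitophagy, 22 chaperone and protease, 37 complex I, 42 complex II to V and 49 mitochondrial ribosome genes. Medians were 0.00, -0.01, 0.00, -0.06, -0.06 and -0.02, in that order, beside 0.01 for all genes. Opa1, which fuses inner membranes, was at 29.4 ± 0.99 RPKM in nTg and 28.9 ± 0.49 in MFN2-R94Q:MFN1 (log2 -0.03, interval -0.10 to 0.05). In complexes II to V, 6 of 42 members had a fold change above 0, and 8 lay below nTg without overlap, against 5.05% of all tested genes. After scaling each library to the same median, 1 member of those complexes and 1 of complex I were lower. In complex I, 3 of 37 members had a fold change above 0, and 2 lay below and 1 above nTg without overlap. Ndufa3, a small subunit, was at 161 ± 6.40 RPKM in nTg, 150.0 ± 7.11 in MFN2-R94Q:MFN1 and 134 ± 2.63 in MFN2-R94Q (log2 against nTg -0.10, interval -0.19 to -0.01, adjusted p = 0.24).

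**Figure D5:**
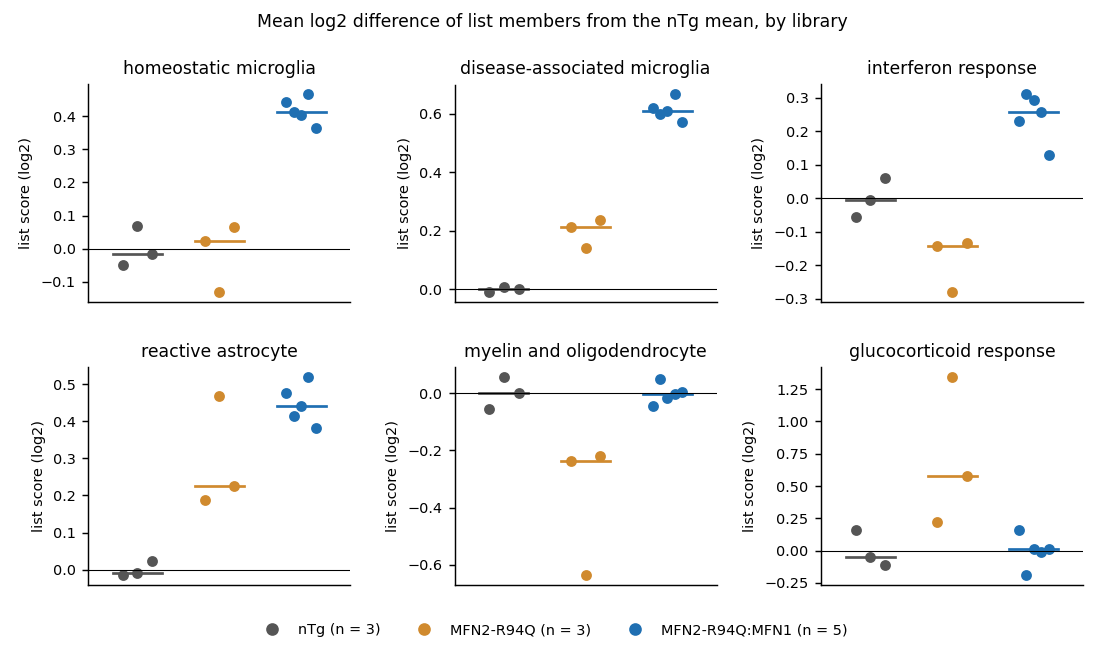
List score of every library, an average over tested members of the log2 difference from nTg, in nTg (3), MFN2-R94Q (3) and MFN2-R94Q:MFN1 (5), with the group median as a line. The microglial score is 0.36 to 0.47 in MFN2-R94Q:MFN1 and -0.13 to 0.07 in MFN2-R94Q, whereas the myelin score is -0.04 to 0.05 and -0.64 to -0.22, and the glucocorticoid score -0.19 to 0.16 and 0.22 to 1.34.

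In the remaining tissue compartments the called genes were few in number. Of all tested genes 2.09% rose and 0.223% fell, and the fibroblast and ependymal lists lay above the first share. Of 28 fibroblast and meningeal matrix genes 4 rose (14.3%) and 1, Igfbp2, fell (3.57%). Among the rises were the small proteoglycans Fmod, 1.43-fold from 2.48 to 3.78 RPKM, and Bgn, 1.27-fold from 3.35 to 4.39. Both were highest in MFN2-R94Q:MFN1 replicate 3, at 5.00 and 5.24 RPKM. That library also held Prx, periaxin of peripheral nerve myelin, at 1.147 RPKM, against at most 0.166 in the other 7 libraries compared, and the part of nerve root in the matrix values was not tested. Without it the list had 3 rises, and without nTg replicate 1 or MFN2-R94Q:MFN1 replicate 4 it had none. Of 31 endothelial genes 1 rose, the transporter Slco1a4 (1.25-fold, lost in 5 of the 11 runs without 1 library). Of 23 ependymal genes 2 did (8.70%), Vim and S100a6 (1.95-fold, from 12.5 to 24.7 RPKM), which astrocytes express too. None of 17 pericyte and smooth muscle genes, 20 oligodendrocyte precursor genes, 30 synaptic vesicle genes or 29 glutamate transmission genes was called, although 3 pericyte genes were higher in the fit of the 8 libraries alone. Of 28 GABA and glycine genes 1 fell, Calb2 (calretinin), from 148 to 131 RPKM.

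Smaller stress groups gave single genes, where 2.09% of all tested genes rose and 0.223% fell. Hspb8 and Hspb6, small heat shock proteins, rose 1.14-fold and 1.26-fold, of 25 heat shock genes at a median of -0.10. Of the 25, 4 had a log2 fold change above 0, and the lowest, at -1.29, was not called. Of 26 endoplasmic reticulum chaperone and stress genes 1 fell, Creld2, at a median of -0.09, and 7 were above 0. Nupr1 and Aldh1l2 rose of 32 ATF4 target genes, 1.48-fold and 1.31-fold, with a median of 0.00. Prdx6, a peroxiredoxin that reduces lipid peroxides, rose 1.21-fold from 91.6 to 111 RPKM, and Ftl1, ferritin light chain, 1.14-fold from 199 to 226 RPKM. Hk2, the inducible hexokinase, rose 1.32-fold from 0.66 to 1.03 RPKM. Of these rises, Hspb6 lost its call in 7 of the 11 runs without 1 library, Aldh1l2 in 8, Nupr1 in 5, Hspb8 in 2 and Hk2 in 1.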

How the data were processed

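RNA of lumbar spinal cord was sequenced in 11 libraries, of which 8 enter the comparison. The authors deposited RPKM per gene symbol, and TopHat, Partek 7.17.0918 and the mouse build mm10 are named in the submitters' processing notes. How reads were assigned to genes, and whether strand was used, is not given in the sources used here. Depth was estimated from values of genes under 160 bases, where 59.6% to 73.2% of low values came out whole within 0.02 reads, too few for a count test.

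Genes at 0.5 RPKM or more in 3 libraries were fitted with limma 3.58.1 in R 4.3.3 (eBayes with a trend) on log2(RPKM + 0.5), with all 11 libraries in 1 fit and two-sided p-values adjusted by Benjamini-Hochberg over 14347 genes at a threshold of 0.05. The fold understates the change of low genes. On simulated data the fit recovered 97% of changes of 0.5 log2 and 100% of changes of 1, with 6.19% false calls. The simulation used normal noise at the fitted spread, equal in all groups and with no outlying library. Its shares are therefore not recovery rates for the real libraries. The members and the 54 gene lists were chosen with earlier results of these data known. Genes named were the mitofusins, the 12 largest rises and falls (no overlap of libraries, 1 RPKM or more on average in the higher group), the 10 smallest p-values, leading called genes of each list, and neighbours of the leading gene; others were chosen after their values were seen. The labels number no replicates, so numbers follow accession order. The p-values set a group difference against the spread between samples, estimated from all 11 libraries and drawn toward a trend over genes. Values of some single genes are not reported here. Alternatives covered the pseudocount, filter, scaling, weights, threshold and libraries left out. Promoters were taken from RefSeq on GRCm38.p6, and 14282 tested symbols matched RefSeq.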

Additional observations from a re-analysis of the deposited data

Results flagged for a closer look

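Among the 5 MFN2-R94Q:MFN1 libraries, 10 of 106 genes screened had a library that stood far from the other 4 by Dixon's criterion (0.71 for 5 values). Chance flags about 1 in 20 groups of values, but some of these genes were chosen after their values were seen, so that share is no expectation for this set.

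In replicate 4, Cd74 was at 11.56 RPKM (others 2.597 to 4.843), H2-Aa at 5.136 (1.299 to 2.31), Mrc1 at 0.2414 (0.157 to 0.1702), C1qc at 62.95 (51.41 to 54.35) and Wisp2 at 1.216 (0.9697 to 1.023). In replicate 3, the peripheral myelin gene Prx was at 1.147 RPKM (others 0.09128 to 0.1662), and the matrix genes Fmod and Bgn at 4.997 (3.322 to 3.649) and 5.24 (4.108 to 4.317). In replicate 5, B2m was lowest, at 113.9 RPKM (134.5 to 142.7). In replicate 2, Kcnk12 was highest, at 4.9 RPKM (3.92 to 4.181). The source of these values was not tested.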

How the results depend on the processing

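The counts of 300 higher and 32 lower genes stayed within 1.5 times under both other pseudocounts, both other filters, quantile normalization and the fit with no trend. Scaling to the same median gave 61 lower genes and trimmed mean scaling 50. The 2 groups fitted alone gave 459 higher and 106 lower, where the median residual SD was 0.0655 against 0.0763 on the log2 scale, and library weights gave 491 and 99. An adjusted p under 0.01 left 148 and 8, and a 1.5-fold minimum 52 and 1. Leaving out 1 library at a time gave 180 to 478 higher and 9 to 111 lower genes. The causes were not tested. Of 73 named genes that were called, 41 kept the call in all 11 runs without 1 library, 29 in all 23 settings, and none reversed. Depth is an estimate, and RPKM hide the counting error of low genes such as Sprr1a. No paired analysis was possible because the labels give no replicate numbers.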

Other observations

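The called genes given here stand in none of the gene lists and were chosen after their values were seen. Mpeg1, the pore-forming perforin-2 of macrophages, rose 1.76-fold from 7.86 ± 0.41 RPKM (SD, n = 3) to 14.2 ± 0.80 (n = 5, adjusted p = 2.5e-05). The Fc receptor genes Fcgr2b and Fcgr3, which bind antibody-coated targets, rose from 1.63 to 2.74 RPKM and from 6.48 to 9.44 RPKM. Cyba, a subunit of the phagocyte oxidase, rose 1.47-fold, and Adgre1, a macrophage surface receptor, rose 1.53-fold. Tspo, the outer mitochondrial membrane protein imaged as a glial marker, rose 1.26-fold from 4.82 to 6.21 RPKM and passed narrowly (adjusted p = 0.049).

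Among the smaller falls, Dkk3 was at 41.6 ± 0.83 RPKM in nTg and 36.9 ± 0.63 in MFN2-R94Q:MFN1 (adjusted p = 0.0073), and Dpysl2, a microtubule-associated protein of growing axons, was at 42.2 and 36.5 RPKM. The haemoglobin gene Hba-a1, a marker of blood left in the tissue, ranged from 46.3 to 151 RPKM over the MFN2-R94Q:MFN1 libraries, with replicate 5 highest.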
